A study of Mus musculus with 31 samples.

Results

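Respiratory complexes II to V pass electrons to oxygen and use the energy to make ATP, and the nuclear genes for their subunits were described here in the hypothalamus of mice whose dams ate an obesogenic or a control diet. The genes were chosen by symbol among the protein-coding genes of the deposited table: Sdha to Sdhd, symbols that begin with Uqcr, Cyc1, symbols that begin with Cox4 to Cox8, and symbols that begin with Atp5, without pseudogenes. This gave 49 of 54532 genes, with 4 for complex II, 9 for complex III, 18 for complex IV and 18 for complex V. The 49 genes carry 48 symbols, because Atp5o stands for a pair of gene models. Another 8 matching symbols were pseudogenes and were left out.

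Libraries came from C57BL/6J mice, an inbred strain, and all offspring were treated alike after weaning at postnatal day 21. They ate standard chow until the age of 3 months, then the obesogenic diet for 4 weeks, and were studied at 4 months. By their labels the groups differ in the dam's diet during pregnancy and lactation, high in fat and sugar for obesogenic dams, and in sex. They hold 7 libraries of females of obesogenic dams, 8 of males of obesogenic dams, 8 of females of control dams and 8 of males of control dams, and are called obesogenic and control females and males below. Group totals ran from 24627042 to 34232678 read pairs per library in obesogenic females, 26128150 to 36283599 in obesogenic males, 28019596 to 36923748 in females of control dams and 23118626 to 38547288 in males of control dams. No label says which library came from which animal or litter, so p-values measure the spread between these libraries, which may be partly technical. Libraries were fitted as independent, and any that share a dam could make the p-values for maternal diet too small. The first number in the library title is lower for every obesogenic library than for every control library. What these numbers stand for is not stated, and any handling that followed them cannot be told apart from maternal diet. Because the control offspring also ate the obesogenic diet as adults, no group was kept on chow throughout.

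Complex II (succinate dehydrogenase) takes electrons from succinate, complex III (cytochrome bc1) hands them to cytochrome c, and complex IV (cytochrome c oxidase) hands them to oxygen. Complexes III and IV pump protons across the inner mitochondrial membrane, and complex V (ATP synthase) lets the protons flow back to drive ATP synthesis. Complex II is encoded by nuclear genes alone, while cytochrome b, the catalytic core of complex IV and a part of the complex V membrane sector are encoded by mitochondrial DNA. Several complex IV subunits exist as a general form and a form typical of heart and skeletal muscle, lung or testis. Neurons draw most of their ATP from this chain.

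Of the 31 libraries, 5 need care. The libraries labelled control female 7 and control male 7 went against their sex label by Xist and Y-linked genes. Another 3 libraries stood apart by their correlation with the rest, obesogenic female 3 (0.936), control female 5 (0.910) and control male 6 (0.914), against 0.967 to 0.979 in the other 28 libraries. Fewer genes were detected in obesogenic female 3 (18513) and control male 6 (18734) than in those 28 (21311 to 22918). Control female 5 had the lowest summed level of 12 hypothalamic neuron markers (166 CPM, pairs scaled by library size) and the highest of 8 olfactory bulb markers (3097 CPM). Control male 6 had the highest level of the hypothalamic neuron markers (3967 CPM) and 522 CPM of the olfactory bulb markers. The remaining 29 libraries spanned 1172 to 2298 CPM for the hypothalamic neuron markers and 290 to 499.7 CPM for the olfactory bulb markers. The 49 genes together took 0.643% of all pairs in obesogenic female 3 and 1.63% in control male 6, against 0.770% to 1.02% in the 28 libraries. Obesogenic female 3 was thus the lowest library for the 49 genes and control male 6 the highest. Many values are given with and without these 5 libraries, and the others with all 31 libraries only. Without the 5 there are 6 obesogenic females, 8 obesogenic males, 6 control females and 6 control males.

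Promoter sequence is shown first, because nuclear respiratory genes share a few transcription factor motifs by which they are known. RefSeq promoters of build GRCm38.p6, 250 bases before to 50 after an annotated start, were matched by symbol for 34 of the 48 symbols, with 37 starts. The motif of NRF1, a factor named for its sites in respiratory chain genes, was searched on both strands as GCGCA and GCGC with any base between. It was found in 10 of 37 promoters (27.03%), against 4.60% of all 32851 promoters of that length in the table. The GABPA motif CCGGAAGT (also called NRF2) was in 4 (10.8% against 3.89%), the ERRA motif CAAGGTCA in 3 (8.11% against 1.56%) and the YY1 motif AAGATGGC in 2 (5.41% against 2.75%). At least 1 of the 4 motifs was in 16 of 37 promoters (43.2%), against 11.9% of all promoters. Matches of different motifs did not overlap. A median of 18 CG dinucleotides per window was counted in the members' promoters, against 7 in all promoters. These shares describe letters in a window and show no binding.

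The next 5 promoters, of generally expressed subunits from each of complexes II to V, carry such matches. They run 5′ to 3′ on the gene's strand, with motif matches in capitals and positions counted from the annotated start, which is 0. Sdha (chr13:74350281-74350350, minus strand, bases -110 to -41) and Cox6a1 (chr5:115349059-115349128, minus strand) each show a pair of NRF1 matches, and Sdha has another at bases -10 to -1. Atp5h (chr11:115419951-115420069, minus strand, bases -150 to -32) holds an NRF1 match and then a GABPA match on the other strand. Uqcr11 (chr10:80406861-80406911, minus strand, bases -90 to -40) holds a GABPA match, and Atp5l (chr9:44920743-44920802, minus strand, bases -60 to -1) an ERRA match on the other strand.
Sdha: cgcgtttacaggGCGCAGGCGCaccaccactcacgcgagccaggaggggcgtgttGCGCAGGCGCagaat
Uqcr11: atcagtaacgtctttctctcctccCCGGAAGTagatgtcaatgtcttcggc
Cox6a1: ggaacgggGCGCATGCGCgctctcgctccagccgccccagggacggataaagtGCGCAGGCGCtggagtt
Atp5h: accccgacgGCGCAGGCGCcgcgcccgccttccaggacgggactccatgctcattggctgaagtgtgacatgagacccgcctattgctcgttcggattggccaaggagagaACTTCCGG
Atp5l: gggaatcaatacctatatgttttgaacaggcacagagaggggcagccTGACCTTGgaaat

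Paralogues with a muscle and a general form are set beside each other as examples of their start regions. Cox8b, the heart and muscle form of subunit 8 (chr7:140900445-140900576, minus strand), had 1 CG dinucleotide over bases -130 to 1, and the general form Cox8a (chr19:7217615-7217746, minus strand) had 10 over the same positions. Cox8a holds a GABPA match on the other strand that crosses the start, and another downstream. Cox7a1, the heart and muscle form of subunit 7a (chr7:30184041-30184143, plus strand), had 3 CG dinucleotides over bases -130 to -28, and the general form Cox7a2 (chr9:79759881-79759983, minus strand) had 8. None of the 4 motifs was matched in the whole windows of the 4 tissue forms with an entry, Cox6b2, Cox7a1, Cox7b2 and Cox8b. A match was in 16 of the 33 promoters of general members and in 11.9% of all promoters, and Cox7a2 had none. For the testis forms, the whole window of Cox6b2 held 10 CG dinucleotides against 17 in Cox6b1. The pair of subunit 7b went the other way, with 10 in Cox7b2 and 5 in Cox7b.
Cox8b: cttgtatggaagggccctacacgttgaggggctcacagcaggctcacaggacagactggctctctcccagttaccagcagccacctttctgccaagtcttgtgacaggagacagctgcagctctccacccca
Cox8a: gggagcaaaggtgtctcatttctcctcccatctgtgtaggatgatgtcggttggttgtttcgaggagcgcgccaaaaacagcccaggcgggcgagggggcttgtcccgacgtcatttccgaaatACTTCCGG
Cox7a1: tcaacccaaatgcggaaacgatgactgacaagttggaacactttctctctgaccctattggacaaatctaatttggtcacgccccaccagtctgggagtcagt
Cox7a2: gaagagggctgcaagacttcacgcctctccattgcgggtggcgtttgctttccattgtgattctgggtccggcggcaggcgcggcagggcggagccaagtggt

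Hypothalamic levels of the subunit genes were high. Levels between genes are given per length, as TPM (counts divided by gene length and scaled to the same total in every library). The median over 31 libraries was 1237 TPM for Cox8a, 1034 TPM for Cox4i1, 941 TPM for the catalytic beta subunit gene Atp5b, 933 TPM for Cox6b1 and 918 TPM for the alpha subunit gene Atp5a1. Cox8a ranked 57th and Atp5a1 94th among all genes. Their ranges over libraries overlapped, for example 715 to 1906 TPM for Cox8a and 725 to 1393 TPM for Atp5b. The highest gene of complex III was Uqcrh, the hinge protein (622 TPM), and that of complex II was Sdha, the flavoprotein that oxidises succinate (462 TPM).

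Between complexes the median gene level was 251.9 TPM in complex II (109 to 462 TPM over genes), 318 TPM in complex III (147 to 622), 242 TPM in complex IV and 182 TPM in complex V. Complex IV spanned the widest range, because its tissue forms lay far below its general forms. Over its 11 genes without a tissue form the median was 511 TPM (187 to 1237), the highest of the 4 complexes on this scale. The deposited length can far exceed a gene's longest coding transcript, which lowers its TPM. It was 6443 against 544 bases for Atp5l and 3567 against 738 for Cox6c, but 545 against 550 for Cox8a. The order of genes and complexes on another length was not tested. Among the genes without a tissue form, Atp5s (factor B, a coupling factor) was the lowest at 34.1 TPM, and Atp5l (subunit g) and Atp5g1 (subunit c) came next with 74.6 and 81.6 TPM. Uqcrb, Atp5f1, Atp5h and Atp5l share 62.8%, 64.6%, 71.1% and 72.2% of their transcript with copies elsewhere in the genome at 98% identity or more. Pairs that map equally to such copies are lost below the mapping quality minimum, so the levels of these 4 genes are uncertain. A part of the transcript, from 11.1% to 45.1%, is shared in this way by another 11 measured genes. The longer Atp5o model had 0 pairs in all libraries, and 100% of it overlaps Donson and the other Atp5o model on the same strand, where pairs are not assigned.

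**Figure D1:**
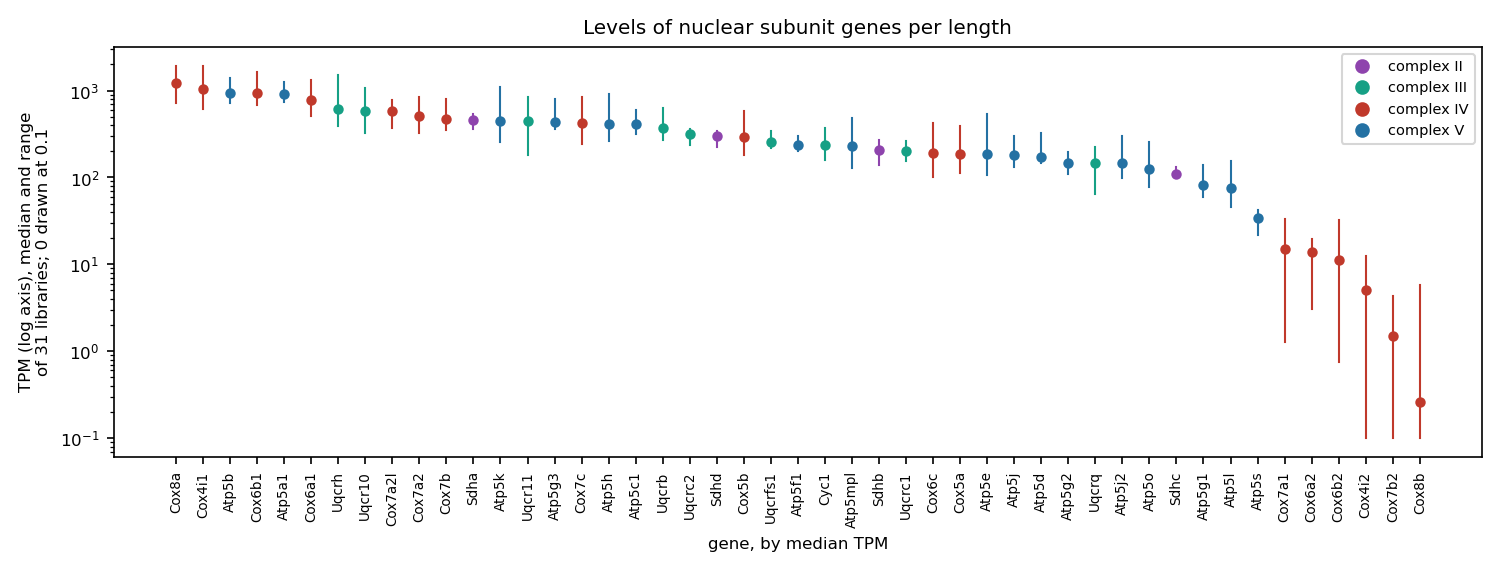
Each column is a gene, with its median TPM (point) and its lowest to highest TPM (line) over 31 libraries on a log axis, coloured by complex. General subunits lie between 34.1 TPM (Atp5s) and 1237 TPM (Cox8a), and the tissue forms at or below 15.1 TPM (Cox7a1); lines that reach 0 end at the bottom of the axis range used for 0, and Cox8c and the longer Atp5o model, with a median of 0, are not drawn.

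The general form of each complex IV subunit with paralogues made up nearly all of its RNA in the hypothalamus. Shares are of the summed TPM of a subunit's paralogues, as the mean over 31 libraries. The heart and muscle forms Cox7a1 and Cox6a2 made up 2.89% ± 0.801 and 1.70% ± 0.482 of their subunits (SD, n = 31), and Cox8b made up 0.0578% ± 0.102. The lung and hypoxia form Cox4i2 made up 0.522% ± 0.285 of subunit 4. The testis forms Cox6b2 and Cox7b2 made up 1.16% ± 0.394 and 0.313% ± 0.232, and Cox8c 0.00428% ± 0.0238.

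In order of their medians the tissue forms were Cox7a1 (15.1 TPM), Cox6a2 (14.01 TPM), Cox6b2 (11.3 TPM), Cox4i2 (5.01 TPM), Cox7b2 (1.48 TPM) and Cox8b (0.263 TPM). Neighbours among the first 3 overlapped over nearly their whole ranges, 1.28 to 33.7 TPM for Cox7a1, 3.02 to 19.7 TPM for Cox6a2 and 0.742 to 32.2 TPM for Cox6b2. Cox8b reached at most 20 pairs in a library. Cox8c had 6 pairs in obesogenic female 2 and 0 in the other libraries, where a count of 0 allows up to 3 pairs, or 0.0778 to 0.130 CPM (counting error only).

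Subunit c of complex V, which forms the membrane rotor, has 3 genes that encode the same mature protein. Atp5g3 made up 65.2% ± 1.70 of their summed TPM, Atp5g2 22.4% ± 1.66 and Atp5g1 12.4% ± 0.691 (SD, n = 31). Without division by gene length Atp5g3 still came first with 59.1%, but Atp5g1 had 25.3% and Atp5g2 15.6%, so the order of these 2 genes turned with the scale. The share of Atp5g3 was 65.4% ± 1.418 in obesogenic females (n = 7) and 64.8% ± 1.52 in control females (n = 8), 65.2% ± 1.10 in obesogenic males and 65.6% ± 2.57 in control males (n = 8 each). These means differ by less than the SD of either group.

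**Figure D2:**
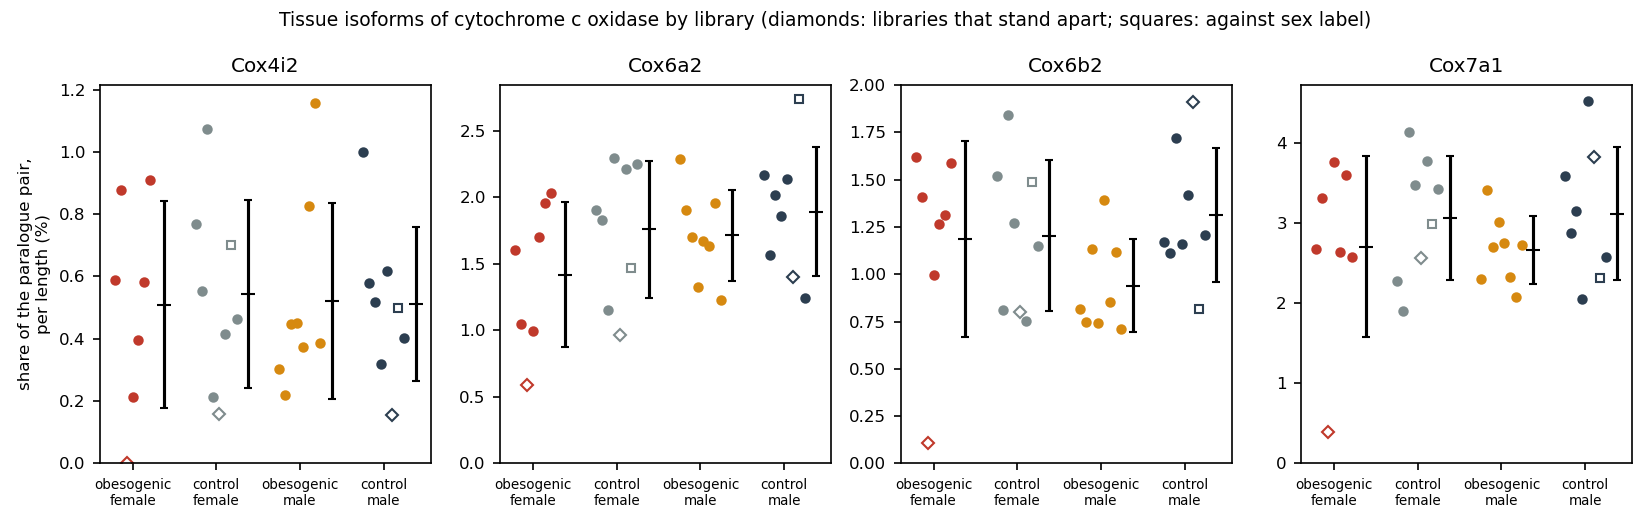
Each point is a library's share (%) of Cox4i2, Cox6a2, Cox6b2 or Cox7a1 in the summed TPM of its subunit, with group mean ± SD beside it; open diamonds are the 3 libraries that stand apart and open squares the 2 against their sex label. The groups overlap for all 4 genes, and obesogenic female 3 is the lowest of its group for each.

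Shares of the tissue forms overlapped between the diets. Cox6a2 made up 0.591% to 2.03% (median 1.605%) in obesogenic females and 0.965% to 2.30% (median 1.87%) in control females. In males it made up 1.23% to 2.29% (median 1.69%) in obesogenic and 1.24% to 2.74% (median 1.94%) in control offspring. For Cox6b2 the share spanned 0.107% to 1.62% in obesogenic females, against 0.752% to 1.84% in control females. Obesogenic males had a Cox6b2 share of 0.711% to 1.39% (median 0.836%) and control males 0.818% to 1.91% (median 1.19%). Cox7a1 shares averaged 2.70% ± 1.13 and 3.07% ± 0.773 in obesogenic and control females, and 2.66% ± 0.428 and 3.11% ± 0.830 in obesogenic and control males (SD). Cox4i2 shares averaged 0.510% ± 0.334 and 0.544% ± 0.301 in obesogenic and control females, and 0.520% ± 0.314 and 0.511% ± 0.248 in obesogenic and control males. The ranges of the groups overlapped for all 4 genes.

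To see whether other tissue could carry such forms, marker genes were summed per library in TMM-scaled CPM. The 12 muscle markers summed to 28.3 to 43.1 CPM in obesogenic females and 10.9 to 50.2 CPM in control females, 28.7 to 38.7 CPM in obesogenic males and 24.7 to 46.9 CPM in control males. The 12 mural cell markers summed to 196 to 240 CPM and 179 to 282 CPM in obesogenic and control females, and 151 to 248.6 CPM and 173 to 256.4 CPM in obesogenic and control males. The 6 parvalbumin interneuron markers summed to 340 to 444 CPM in obesogenic females and 335 to 406 CPM in control females, 351 to 450 CPM in obesogenic males and 340 to 447 CPM in control males. None of the markers in these lists was at 0 in every library, and the ranges overlapped between diets. Single genes carried much of the sums in the 3 libraries that stood apart. In control male 6, Myh7 had 34.8 and Acta1 4.67 of 44.7 CPM of muscle markers. Actc1, Ckm and Myh2 had 0 pairs in all 3 libraries. Pvalb itself had 13.9 CPM in obesogenic female 3, 6.22 CPM in control female 5 and 52.6 CPM in control male 6. Their part in the levels of the tissue forms was not tested, and in whole tissue fewer cells of a type and less RNA per cell cannot be told apart.

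The first comparison asks how the subunit genes of daughters differ with maternal diet, as obesogenic over control females. Of 46 members that passed the filter on low counts, 44 had a log2 fold change below 0, with a median of -0.23, against 52.5% of all 18743 genes tested and a median of -0.01. A coding sequence of up to 600 bases is shared by 35 of the 46. Of all tested genes of that coding length, 78.1% were lower (median -0.13). Differences per gene were small, and 0 members passed an adjusted p of 0.05 in edgeR (0% of all genes tested). At an unadjusted p under 0.05, 7 members were lower and 0 higher, against 8.12% of all genes, 4.75% lower and 3.37% higher. DESeq2 called 6 genes over all in this comparison, of which 0 were members. The 3 members that did not pass the filter, Cox8b, Cox8c and the longer Atp5o model, were not fitted.

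By complex the median log2 fold change in females was -0.13 for complex II (3 of 4 lower), -0.25 for complex III (8 of 9), -0.31 for complex IV (16 of 16) and -0.22 for complex V (17 of 17). Without the 5 libraries these medians were -0.09, -0.18, -0.19 and -0.14, with 43 of 46 members lower (51.1% of all genes) and a median over all of -0.18. The 14 members then under an unadjusted p of 0.05 were all lower, against 8.4% of all genes, 4.53% lower and 3.87% higher, and 0 passed an adjusted p of 0.05 (0% of all genes). With all libraries and 2 surrogate variables as covariates, the medians were -0.03, -0.08, -0.11 and -0.05 in complexes II, III, IV and V, and 41 of 46 members were lower (54.3% of all genes).

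In complex II, Sdhb, the iron-sulfur protein, ran from 91.9 to 142.0 CPM (median 135) in obesogenic females and from 142.4 to 171 CPM (median 151) in control females. The groups did not overlap, but the highest obesogenic female (142.0 CPM) was close to the lowest control female, and obesogenic female 3 lay far below the rest. The highest control value (171 CPM) was that of control female 5. How many of all tested genes also had no overlap was not counted. The fit gave a log2 fold change of -0.23 ± 0.11 (SE, edgeR adjusted p = 0.600), or -0.13 without the 5 libraries. Sdhc, a membrane anchor, averaged 104 ± 7.87 CPM in obesogenic and 116 ± 7.53 CPM in control females (log2 fold change -0.15, adjusted p = 0.660). The catalytic flavoprotein Sdha ran from 558 to 621 CPM (median 606) in obesogenic females and from 508 to 646 CPM (median 597) in control females, so that the obesogenic range lay within the control range. Sdhd, the other anchor, had a log2 fold change of -0.11 ± 0.09.

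In complex III, Uqcrfs1, the Rieske iron-sulfur protein, ran from 87.1 to 115 CPM (median 101) in obesogenic females and from 106 to 132 CPM (median 115) in control females. Every obesogenic female lay below the control mean (log2 fold change -0.20 ± 0.09, edgeR adjusted p = 0.581). Uqcr11, a small accessory subunit, ran from 34.6 to 105 CPM (median 79.1) in obesogenic and from 85.5 to 126 CPM (median 96.9) in control females. The fitted log2 fold change of -0.39 ± 0.19 (edgeR adjusted p = 0.610) became -0.27 without the 5 libraries; 6 of 7 obesogenic females lay below the control mean. The core protein genes were nearer to 0, with -0.12 ± 0.10 for Uqcrc1 and 0.02 ± 0.06 for Uqcrc2. Cyc1, cytochrome c1, had a log2 fold change of -0.21 ± 0.11, and -0.07 without the 5 libraries.

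In complex IV, Cox8a ran from 116 to 211 CPM (median 194) in obesogenic females and from 187 to 297 CPM (median 227) in control females. All 7 obesogenic females lay below the control mean, and the groups overlapped between 187 and 211 CPM. The log2 fold change was -0.33 ± 0.13 (edgeR adjusted p = 0.557), and -0.22 without the 5 libraries. The muscle form Cox6a2 ran from 0.610 to 3.04 CPM (median 2.47) in obesogenic females and from 2.14 to 4.59 CPM (median 3.12) in control females. Its log2 fold change of -0.57 ± 0.24 (adjusted p = 0.571) was the furthest from 0 of the 46 members, it was -0.54 without the 5 libraries, and 7 of 7 obesogenic females lay below the control mean. The general form Cox6a1 had a log2 fold change of -0.30 ± 0.15, with 7 of 7 below.

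For the other paralogue pairs in females, Cox4i2 and Cox4i1 had log2 fold changes of -0.32 ± 0.45 and -0.26 ± 0.17. Cox6b2 had -0.15 ± 0.36 (0.02 without the 5 libraries), and the general form Cox6b1 had -0.16 ± 0.15. For subunit 7a, Cox7a1 had -0.36 ± 0.34 and Cox7a2 -0.26 ± 0.15. The testis form Cox7b2, at 0.171 ± 0.109 CPM in obesogenic and 0.222 ± 0.103 CPM in control females, had -0.35 ± 0.65 and its X-linked general paralogue Cox7b -0.22 ± 0.15. In these 4 pairs the SE of the tissue form covers the value of its general paralogue. Cox7a2l, a paralogue classed as a factor for supercomplexes of complexes III and IV, had -0.22 ± 0.12. Whether it joins these complexes in this strain was not tested.

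In complex V, Atp5g2 ran from 54.5 to 81.1 CPM (median 70.8) in obesogenic females and from 74.4 to 97.97 CPM (median 79.7) in control females. All 7 obesogenic females lay below the control mean, and the log2 fold change was -0.27 ± 0.10 (edgeR adjusted p = 0.549), or -0.21 without the 5 libraries. Atp5c1, the gamma subunit of the central stalk, ran from 177 to 250.7 CPM (median 232) and from 232 to 323 CPM (median 250) in obesogenic and control females (log2 fold change -0.20 ± 0.10, adjusted p = 0.626; -0.10 without the 5 libraries). The other c subunit genes, Atp5g1 and Atp5g3, had -0.18 ± 0.13 and -0.20 ± 0.15. The genes of the catalytic head were closer to 0, with -0.10 ± 0.08 for Atp5a1 and -0.11 ± 0.09 for Atp5b, and -0.03 and -0.01 without the 5 libraries.

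In sons, obesogenic males were compared with control males. Of the 46 members, 42 had a log2 fold change below 0 (median -0.24), against 49.9% of all genes (median 0.0004). Of all tested genes with a coding sequence of up to 600 bases, 75.4% were lower (median -0.14). In edgeR, 0 members passed an adjusted p of 0.05 (0% of all genes), and 9 members were lower and 0 higher at an unadjusted p under 0.05, against 3.45% of all genes, 2.54% lower and 0.907% higher. These values rested largely on control male 6. With those 5 libraries left out 34 of 46 were lower with a median of -0.06, against 48% of all genes, and 1 member, Cox6b2, was lower at an unadjusted p under 0.05, against 2.7% of all genes, 1.48% lower and 1.22% higher. Without the 3 libraries that stood apart, of which control male 6 is the only male, 27 of 46 were lower and the median was -0.04. With all libraries, the median was 0.01 in limma voom (21 of 46 lower) and 0.01 with 2 surrogate variables (19 of 46 lower). Of the 12 hypothalamic neuron markers, 11 were lower in obesogenic males (median -0.18), and 11 without the 5 libraries (median -0.095). In females 2 of the 12 were lower (median 0.19), and 4 without the 5 libraries (median 0.06). Of the 8 olfactory bulb markers, 8 were lower in obesogenic females (median -4.38), and 5 without the 5 libraries (median -0.04). The part of these markers in either diet comparison was not tested.

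**Figure D3:**
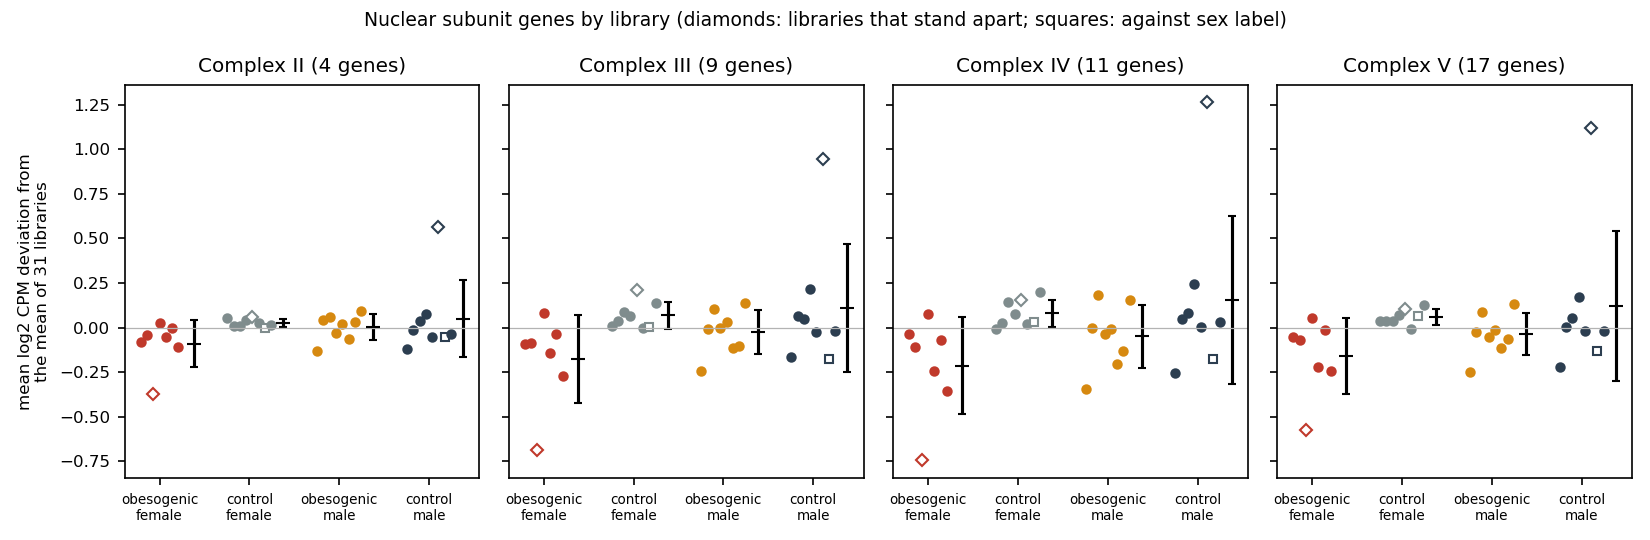
Each point is a library's mean log2 CPM deviation from the mean of 31 libraries over the general subunit genes of a complex, with group mean ± SD beside it; open diamonds stand apart and open squares go against their sex label. Obesogenic female 3 is the lowest library in all 4 panels (-0.38, -0.69, -0.75 and -0.58) and control male 6 the highest (0.56, 0.94, 1.26 and 1.12).

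The summary by library shows how the males depended on that library. Over the general members of all complexes, the mean log2 deviation was -0.26 to 0.14 in obesogenic males and -0.21 to 1.07 in control males, and -0.21 to 0.19 in control males without the doubtful libraries. With all libraries 7 of 8 obesogenic males lay below the control male mean, and 6 of 8 lay below it without the doubtful libraries. In females the mean deviation spanned -0.63 to 0.06 in obesogenic and 0.004 to 0.14 in control libraries. All 7 obesogenic females lay below the control female mean, and 5 of the remaining 6 without the doubtful libraries.

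By complex the medians in males were -0.09 for complex II, -0.20 for complex III, -0.28 for complex IV and -0.24 for complex V, and 0.01, -0.03, -0.09 and -0.02 without the 5 libraries. In complex II, Sdhb ran from 126 to 166 CPM (median 144) in obesogenic males and from 129 to 243.99 CPM (median 140) in control males, with the highest value in control male 6. Here Sdhb had a log2 fold change of -0.11 ± 0.10 (edgeR adjusted p = 0.940), and -0.01 without the 5 libraries. Sdhc had -0.10 ± 0.09 and 0.005 without them. Sdha ran from 603 to 671 CPM (median 613) in obesogenic males and from 566 to 683 CPM (median 595) in control males (log2 fold change 0.04 ± 0.06).

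In complex III, Uqcrh ran from 178 to 274.6 CPM (median 233) in obesogenic males and from 190.5 to 788 CPM (median 245.3) in control males, where the highest library but control male 6 had 284 CPM. The log2 fold change was -0.39 ± 0.20 (edgeR adjusted p = 0.940) with all libraries and -0.06 without the 5. Uqcr11 ran from 72.9 to 102 CPM (median 86.2) in obesogenic males and from 76.2 to 225 CPM (median 91.3) in control males, with a log2 fold change of -0.34 ± 0.18, or -0.13 without the 5 libraries. The obesogenic males lay inside or just below the control range for both genes. Uqcrc2 again lay at 0.03 ± 0.06.

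In complex IV the male value furthest from 0 was that of the testis form Cox6b2. It ran from 2.05 to 4.47 CPM (median 2.48) in obesogenic males and from 2.36 to 15.05 CPM (median 4.09) in control males. Cox6b2 had a log2 fold change of -0.84 ± 0.35 (edgeR adjusted p = 0.940), with all 8 obesogenic males below the control mean. Leaving out the 5 libraries, it was -0.51 ± 0.20 (adjusted p = 0.9996), over 2.05 to 4.47 CPM in obesogenic males and 3.20 to 5.74 CPM in control males, which overlap. The diet effect on Cox6b2 in females minus that in males was 0.69 ± 0.51 (adjusted p = 0.9996), so no difference between the sexes was shown.

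Among the other complex IV genes in males, Cox7c ran from 117 to 167 CPM (median 146) in obesogenic males and from 118 to 401 CPM (median 161) in control males. Cox7c had a log2 fold change of -0.37 ± 0.17 (edgeR adjusted p = 0.940), and -0.12 without the 5 libraries. The muscle forms Cox7a1 and Cox6a2 had -0.51 ± 0.32 and -0.34 ± 0.23 (-0.28 and -0.20 without the 5 libraries), and their general paralogues Cox7a2 and Cox6a1 -0.24 ± 0.14 for both. Cox4i2 had -0.11 ± 0.44 and Cox4i1 -0.31 ± 0.16. Cox7b2 had 0.19 ± 0.61 and Cox7b -0.28 ± 0.14, while Cox6b1 had -0.26 ± 0.14 and Cox8a -0.21 ± 0.13. The general paralogues named here lay between -0.09 and -0.04 without the 5 libraries.

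In complex V, Atp5l ran from 124 to 172 CPM (median 141) in obesogenic males and from 123 to 418 CPM (median 159) in control males (log2 fold change -0.38 ± 0.16, edgeR adjusted p = 0.940). Atp5e, the epsilon subunit and the shortest coding sequence of the 49, ran from 72.6 to 108 CPM (median 96.6) in obesogenic males and from 72.9 to 394 CPM (median 104) in control males (-0.54 ± 0.23, adjusted p = 0.940). In the 26 other libraries these values were -0.13 and -0.12. The c subunit genes Atp5g1, Atp5g2 and Atp5g3 had -0.20 ± 0.13, -0.14 ± 0.10 and -0.24 ± 0.14, and 0.003, -0.06 and -0.01 without them. Atp5a1 and Atp5b, of the catalytic head, had -0.005 ± 0.07 and -0.04 ± 0.09.

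**Figure D4:**
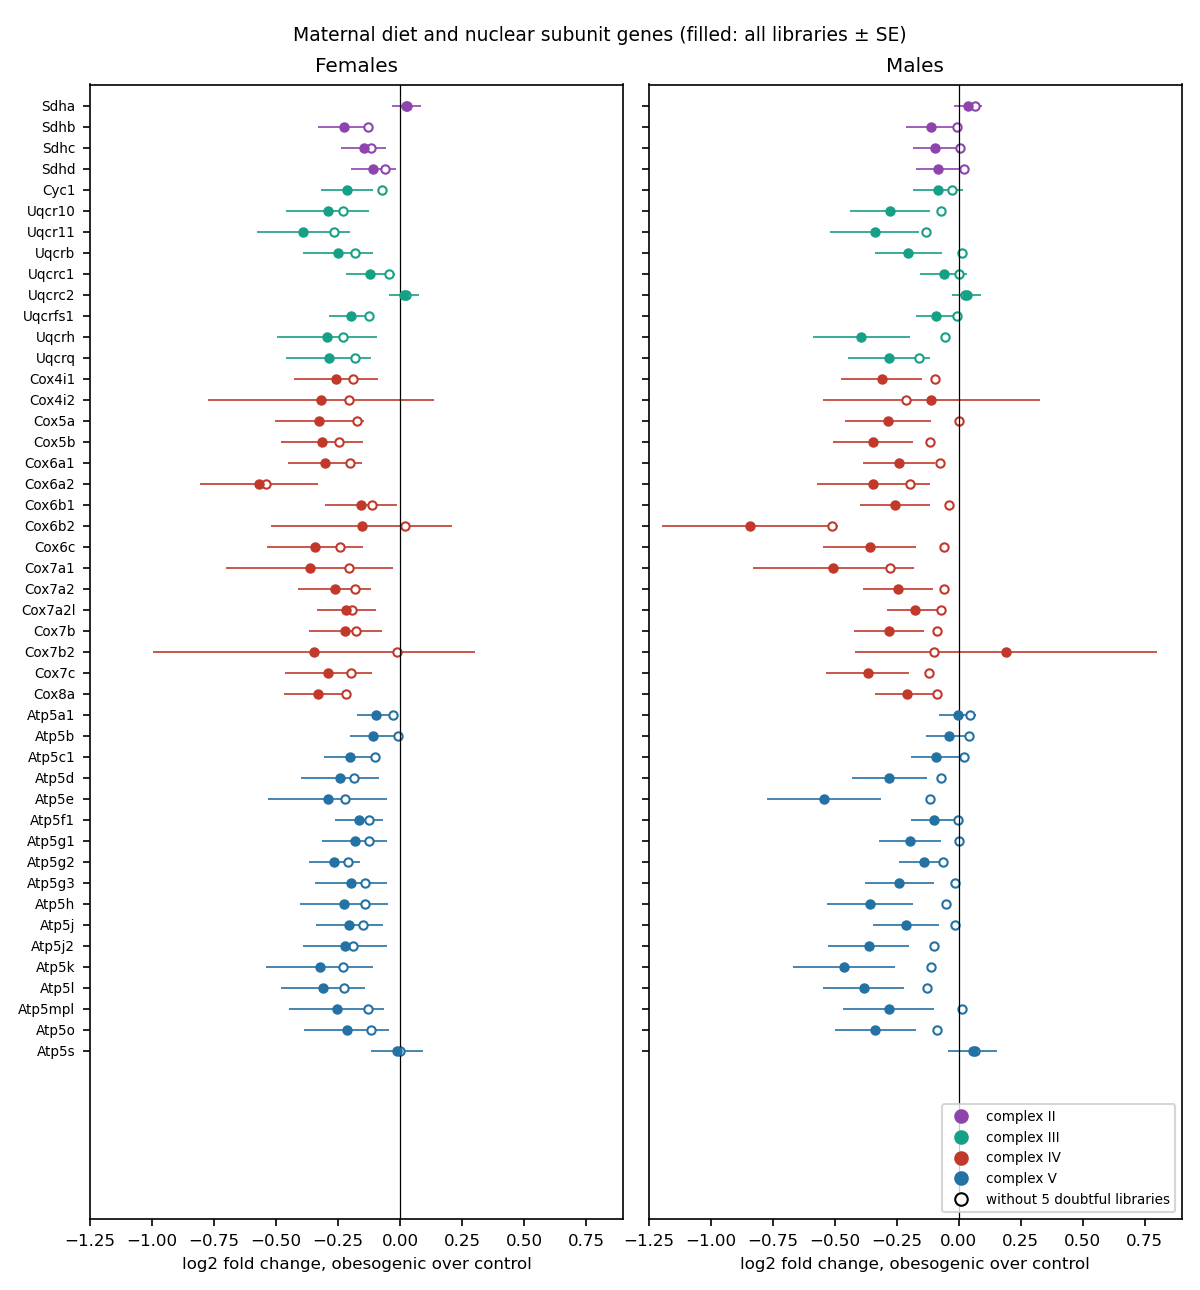
Each row is a member, with the log2 fold change of obesogenic over control in females (left) and males (right); filled points with ± SE use all 31 libraries and open points leave out the 5 doubtful libraries. In females 44 of 46 filled and 43 of 46 open points lie below 0, and in males 42 filled and 34 open points.

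Averaged over both sexes, 43 of 46 members were lower (median -0.25, all genes -0.01, 52.5% lower) and 0 passed an adjusted p of 0.05 (0% of all genes). Of all tested genes with a coding sequence of up to 600 bases, 81.5% were lower (median -0.14). At an unadjusted p under 0.05, 31 members were lower and 0 higher, against 10.2% of all genes, 6.37% lower and 3.87% higher. Over the 26 libraries not in doubt 41 of 46 were lower (50.7% of all genes), 14 of them at an unadjusted p under 0.05, against 7.95% of all genes, 4.18% lower and 3.77% higher, and 0 passed an adjusted p (0%). The smallest unadjusted p per complex belonged to Sdhb (log2 fold change -0.17 ± 0.07), Uqcr11 (-0.36 ± 0.13), Cox8a (-0.27 ± 0.09) and Atp5l (-0.35 ± 0.12), all with edgeR adjusted p = 0.464. With the 5 left out they had -0.07, -0.20, -0.15 and -0.18. The difference between the diet effects of the sexes had a median of -0.02 over members, with 26 of 46 below 0 (49% of all genes). In it 0 members had an unadjusted p under 0.05 (3.62% of all genes, 2.33% below 0 and 1.3% above) or an adjusted one (0% of all genes). Without the 5 libraries 42 of 46 were below 0 (51.8% of all genes, median -0.12), and again 0 had an unadjusted p under 0.05 (3.48% of all genes, 1.96% below 0 and 1.52% above) or an adjusted one (0%). The smallest p per complex there belonged to Sdhb (-0.11 ± 0.15), Uqcrfs1 (-0.11 ± 0.12), Cox6b2 (above) and Atp5a1 (-0.09 ± 0.11).

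Members were also grouped by coding length over all complexes together, as a description with no test. Complex IV has no member over 600 bases. The 6 members with a coding sequence over 900 bases (Sdha, Cyc1, Uqcrc1, Uqcrc2, Atp5a1 and Atp5b) had a median log2 fold change of -0.10 in females and -0.02 in males. The 5 members over 600 and up to 900 bases had -0.20 and -0.10, and the 35 members of up to 600 bases had -0.27 and -0.28. All tested genes with a coding length followed the same order, with 0.03 and 0.04 over 900 bases (11368 genes). They had -0.08 and -0.06 over 600 and up to 900 bases (2096 genes) and -0.13 and -0.14 up to 600 bases (1940 genes). Of up to 600 bases, 35 of 35 members were lower in females and 33 of 35 in males, against 78.1% and 75.4% of all such genes. Without the 5 libraries the members of up to 600 bases had -0.19 in females and -0.07 in males, and all such genes -0.12 and -0.03. Lower then were 34 and 28 of these 35 members, against 79.2% and 62.4% of all such genes.

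Gene length moved with the libraries too. Over all genes the slope of a library's log2 level on gene length was 0.20 per doubling of length in obesogenic female 3 and -0.20 in control male 6, against -0.10 to 0.08 in the others. With a smooth trend on deposited gene length removed from each library, the members' median was -0.18 in females and -0.19 in males. With the trend removed and the 5 libraries left out it was -0.11 in females (39 of 46 lower) and 0.001 in males (20 of 46 lower). With all libraries, removing this trend left differences by coding length. All tested genes of up to 600 coding bases then had -0.07 in females (67.4% lower) and -0.12 in males (75.1% lower). With the 5 libraries left out too, these genes had -0.08 in females (71.7% lower) and 0.0006 in males (49.8% lower). The part of RNA quality in this was not tested.

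**Figure D5:**
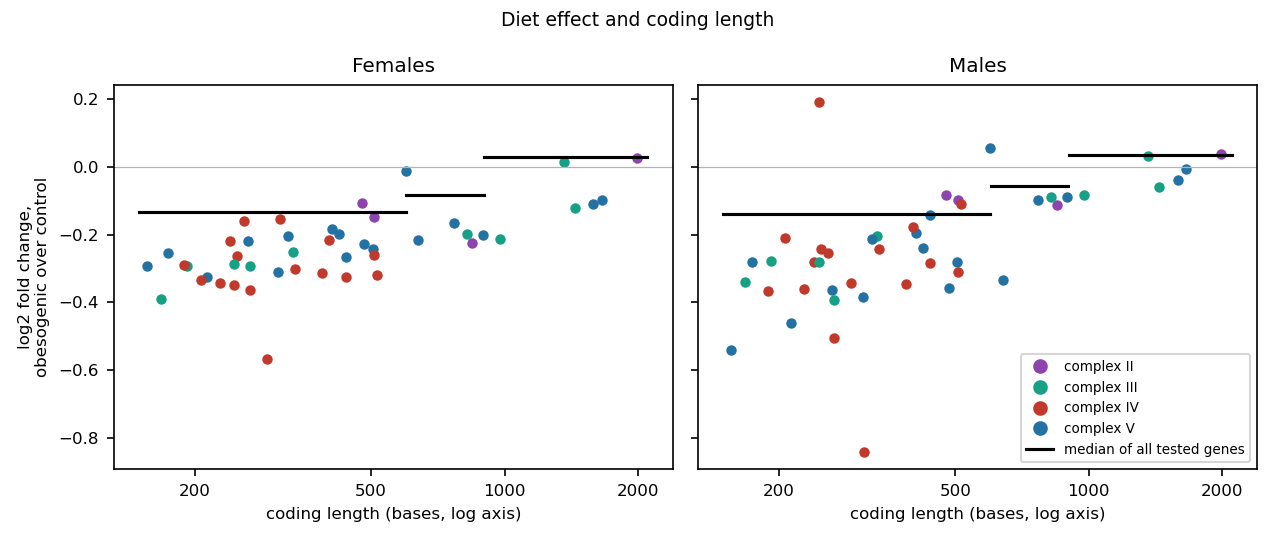
Each point is a member, with its coding length in bases on a log axis and its log2 fold change of obesogenic over control in females (left) and males (right). Black lines are the medians of all tested genes with a coding length in 3 length classes. Members of up to 600 bases lie lowest (medians -0.27 and -0.28), and those over 900 bases nearest to 0 (-0.10 and -0.02).

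Females and males were also compared within each maternal diet, with fold changes of females over males. Under the obesogenic maternal diet 45 of 46 members were lower in females (median -0.13, against 51.3% of all genes and a median of -0.004), and 0 passed an adjusted or an unadjusted p of 0.05 (0% and 3.63% of all genes, the second 1.59% lower and 2.04% higher). Without the 5 libraries 39 were lower (51.6% of all genes) with a median of -0.06, and 0 passed an adjusted p of 0.05 (0.0749% of all genes). The smallest p per complex belonged to Sdhb (log2 fold change -0.15 ± 0.11), Uqcrb (-0.20 ± 0.14), Cox6a2 (-0.38 ± 0.24) and Atp5c1 (-0.15 ± 0.10). Without the 5 libraries Cox6b2 was the only member of unadjusted p under 0.05 (5.48% of all genes, 2.86% lower and 2.62% higher). It was higher in obesogenic females, over 3.65 to 4.98 CPM in obesogenic females and 2.05 to 4.47 CPM in obesogenic males (log2 fold change 0.49, edgeR adjusted p = 0.859).

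Under the control maternal diet the direction of the sex difference turned with the libraries used. With all libraries 42 of 46 members were lower in females (median -0.14, against 51.1% of all genes), and without the 5 libraries 5 of 46 were lower (median 0.04, against 49.3%). For both sets 0 members passed an adjusted p of 0.05 (0% of all genes, and 0.0588% without the 5 libraries), and 0 had an unadjusted p under 0.05 (4.39% of all genes, 1.07% lower and 3.32% higher, and 2.42% without the 5 libraries, 1.03% lower and 1.4% higher). Sdha, Uqcrh, Cox7c and Atp5h, which had the smallest p per complex, had log2 fold changes of -0.04 ± 0.06, -0.26 ± 0.19, -0.23 ± 0.17 and -0.26 ± 0.17 with all libraries. They had 0.003, 0.09, 0.005 and 0.04 without the 5.

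Members of different complexes varied together across libraries. The correlation of their log2 CPM, taken as deviations from the group means over 31 libraries, had a median of 0.92 within complex IV, 0.85 within complex V, 0.73 within complex III, 0.57 within complex II and 0.83 between complexes, over the general members. Over the 26 libraries not in doubt these medians were 0.80, 0.55, 0.32, 0.10 and 0.56. Complex IV thus held the closest correlations both ways and complex II the loosest. All pairs share libraries, depth and the trend on gene length, so these values are a description. With the length trend removed over 31 libraries they were 0.87, 0.83, 0.67, 0.65 and 0.79, in the same order of complexes.

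Single members differed in how closely they followed the rest. Over the 26 libraries, Cox4i1 had the highest median correlation with the general members (0.82), before Uqcr10 (0.81) and Atp5j2 (0.80). The lowest belonged to Sdha (-0.17) and Atp5a1 (-0.17), which have long coding sequences, and to the tissue forms Cox4i2 (-0.13), Cox6a2 (-0.05) and Cox7b2 (-0.004). Low counts of these tissue forms limit any correlation.

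Genes that build the complexes were counted from lists of the pathway, and 0 of them passed an adjusted p of 0.05 in edgeR for diet in either sex (0% of all genes). For complex IV, 16 of 24 tested assembly factors were lower in females (median -0.11) and 16 of 24 in males (median -0.07), and 15 and 12 without the 5 libraries. Cox20, which helps to insert the mitochondrially encoded subunit 2, averaged 13.7 ± 2.51 CPM in obesogenic and 17.8 ± 3.23 CPM in control females (log2 fold change -0.38 ± 0.13, edgeR adjusted p = 0.524). Higd2a averaged 64.2 ± 12.8 and 76.7 ± 8.58 CPM in obesogenic and control females (-0.26 ± 0.11). These values were -0.26 for Cox20 and -0.12 for Higd2a without the 5 libraries. In males, Coa3 averaged 82.6 ± 8.91 CPM in obesogenic and 102 ± 37.9 CPM in control offspring (-0.31 ± 0.13, -0.15 without the 5 libraries), and Cox14 43.0 ± 3.45 and 54.5 ± 22.8 CPM (-0.34 ± 0.15, -0.14 without them).

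The other assembly factor lists were short. For complex II, 4 of 4 were lower in females (median -0.13) and 3 of 4 in males (median -0.14), and 2 of 4 in each sex without the 5 libraries. Sdhaf2, which attaches FAD to Sdha, was at 52.2 ± 2.47 CPM in obesogenic and 59.6 ± 10.5 CPM in control males (log2 fold change -0.19 ± 0.08, -0.11 without the 5 libraries). For complex III, 4 of 6 were lower in females and 2 of 6 in males (medians -0.01 and 0.03), with Uqcc2 at -0.23 ± 0.17 in females and -0.34 ± 0.16 in males, or -0.20 and -0.15 without the 5 libraries. For complex V, 4 of 4 were lower in females (median -0.16) and 1 of 4 in males (median 0.01). Atpaf2, which binds the alpha subunit during assembly, averaged 22.2 ± 1.74 CPM in obesogenic and 24.97 ± 2.53 CPM in control females (-0.17 ± 0.08, -0.20 without the 5 libraries).

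Partners of the nuclear subunits were read in the same way. All 4 of cytochrome c and the subunits outside the symbol rule were lower in both sexes (medians -0.21 in females and -0.27 in males), and 4 and 3 without the 5 libraries (medians -0.14 and -0.05). Cycs, cytochrome c, averaged 77.7 ± 11.4 CPM in obesogenic and 87.7 ± 11.1 CPM in control females (log2 fold change -0.17 ± 0.10), and Ndufa4, now counted as a subunit of complex IV, 235 ± 45.6 and 278 ± 16.5 CPM (-0.24 ± 0.17). Cycs had -0.08 and Ndufa4 -0.16 without the 5 libraries. Of the 6 subunits that mitochondrial DNA encodes for complexes III to V, 4 were lower in females (median -0.18) and 1 in males (median 0.24), and 5 and 2 without the 5 libraries. The catalytic subunit gene mt-Co1 averaged 19797 ± 3594 CPM in obesogenic and 15820 ± 4032 CPM in control males (0.32 ± 0.15, edgeR adjusted p = 0.940), or 0.22 without the 5 libraries. Counts of mt-Atp6 and mt-Co3, at 12.3 ± 3.64 and 17.02 ± 6.83 CPM in obesogenic females and 32.1 ± 27.01 and 30.3 ± 13.4 CPM in control females, were far below those of mt-Co1 and are uncertain.

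Among 11 regulators of these genes, 7 were lower in females and 4 in males (medians -0.06 and 0.05), and 4 in each sex without the 5 libraries. Esrra, which encodes the factor ERRA whose motif was searched above, averaged 27.5 ± 2.80 CPM in obesogenic and 35.1 ± 19.7 CPM in control females (log2 fold change -0.35 ± 0.18, edgeR adjusted p = 0.615). That value was -0.006 without the 5 libraries. Tfb2m, a mitochondrial transcription factor, averaged 13.1 ± 2.40 and 15.5 ± 1.69 CPM in obesogenic and control females (-0.24 ± 0.10, -0.16 without them). In males, Yy1 averaged 62.9 ± 5.81 CPM in obesogenic and 58.3 ± 5.16 CPM in control offspring (0.11 ± 0.07), and Esrrg 17.1 ± 3.98 and 12.96 ± 5.50 CPM (0.40 ± 0.31). Yy1 had 0.10 and Esrrg 0.22 without the 5 libraries.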

How the data were processed

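RNA from the hypothalamus was sequenced in 31 libraries. Per the file headers, the authors counted read pairs with featureCounts 1.6.2, using genes of Ensembl GRCm38 (release 94), and required both ends mapped, a mapping quality of at least 10 and the reverse strand. The deposited counts are raw. Alignment was with TopHat2 2.0.13 to mm10, per the submitters' processing notes. Gene lengths are those deposited beside the counts, and symbols came from GENCODE annotation of the same build.

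Counts of 54532 genes were filtered (filterByExpr), scaled by TMM and tested with the quasi-likelihood test of edgeR 4.0.16 in R 4.3.3, with 4 group means over all 31 libraries. P-values were adjusted by Benjamini-Hochberg over all genes tested, at a threshold of 0.05. CPM are TMM-scaled, and log2 CPM used a prior count of 2. TPM used the deposited gene length. A library was said to stand apart when its correlation with the rest, taken as a median, was low by more than 3 scaled median absolute deviations. The scaling makes this deviation comparable with an SD for normally distributed values. A count of 0 allows up to 3 pairs, which covers counting error only.

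Alternatives were DESeq2 1.42.0, limma voom 3.58.1 with quality weights, RLE size factors, other filters, 2 surrogate variables (sva 3.50.0), fits on 2 groups alone, libraries left out, and a smooth trend on gene length (4 degrees of freedom) removed. The last of these combined with the 5 doubtful libraries left out was added after the data were seen. The edgeR step was run on simulated data with the same spread for every gene and no outlying or mislabelled libraries. That run checks the code and does not measure power in these libraries. Members, gene lists and tests were chosen with earlier results of these data known. Genes with full values were those of the smallest p per complex in each comparison, all paralogues, and the members that failed the filter; for pathway lists, those of the smallest p in each sex. Other members named were chosen after their values were seen.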

Additional observations from a re-analysis of the deposited data

Results flagged for a closer look

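Of 128 sets of values, each a gene's CPM or a complex mean in a group, 37 had a highest or lowest library far from the others by Dixon's criterion. Chance flags about 1 in 20 groups. The sets share libraries and genes that vary together, so that rate gives no scale for the count of 37. Control male 6 gave 28 of the flags, obesogenic female 3 gave 4, control female 5 gave 3, and obesogenic males 7 and 8 gave 1 each.

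For complex II, obesogenic female 3 had the lowest complex mean of its group (log2 deviation over general members), at -0.38. In control male 6 the complex mean was the highest of its group, at 0.56 for complex II, 0.94 for complex III, 1.26 for complex IV, 1.12 for complex V and 1.07 over all.

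Obesogenic female 3 was lowest of its group for Sdhb (91.9 CPM), Cox8a (116 CPM) and Cox6b2 (0.244 CPM). Obesogenic male 7 was highest for Sdha (671 CPM) and obesogenic male 8 for Atp5c1 (288 CPM). Control female 5 was highest for Sdhb (171 CPM), Atp5c1 (323 CPM) and Uqcrb (115 CPM).

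Control male 6 was the highest control male for genes of every complex. Its levels were 683 CPM for Sdha, 243.99 CPM for Sdhb and 179 CPM for Sdhc in complex II. In complex III they were 171 CPM for Uqcrfs1, 225 CPM for Uqcr11, 788 CPM for Uqcrh and 231 CPM for Uqcrb. In complex IV they were 1265 CPM for Cox4i1, 389.9 CPM for Cox6a1, 492.9 CPM for Cox6b1, 15.05 CPM for Cox6b2, 7.58 CPM for Cox7a1, 336 CPM for Cox7a2, 405 CPM for Cox7b, 401 CPM for Cox7c and 402 CPM for Cox8a. In complex V they were 1194 CPM for Atp5a1, 433 CPM for Atp5c1, 394 CPM for Atp5e, 284 CPM for Atp5g1, 726 CPM for Atp5g3, 567 CPM for Atp5h and 418 CPM for Atp5l. What sets this library apart was not tested.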

How the results depend on the processing

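Among alternative values for 56 single-member results, 663 kept their direction and their side of the threshold and 53 changed sign, and 0 members passed an adjusted p of 0.05 under any setting run. The sign of the log2 fold change turned as follows for diet in females. Limma voom gave 0.014 for Cox6b2 and 0.0042 for Cox7b2. 2 surrogate variables gave 0.0097 for Cox6b2. Leaving out the 5 doubtful libraries gave 0.019 for Cox6b2. Leaving out those 5 and removing the length trend gave 0.0999 for Cox6b2 and 0.069 for Cox7b2. The sign of the log2 fold change turned as follows for diet in males. Limma voom gave 0.029 for Sdhc, 0.052 for Sdhb, 0.014 for Uqcrh, 0.011 for Cox6a1, 0.0048 for Cox6b1, 0.031 for Atp5g1 and 0.049 for Atp5g3. 2 surrogate variables gave 0.034 for Sdhc, 0.044 for Sdhb, 0.013 for Uqcrh, 0.0062 for Cox6a1, 0.010 for Cox6b1, 0.043 for Atp5g1, 0.0012 for Atp5g2 and 0.041 for Atp5g3. Leaving out the 3 libraries that stood apart gave 0.0036 for Sdhc, 0.0035 for Sdhb, 0.014 for Atp5g1 and 0.0018 for Atp5g3. Leaving out the 5 doubtful libraries gave 0.0050 for Sdhc, -0.098 for Cox7b2 and 0.0025 for Atp5g1. Leaving out those 5 and removing the length trend gave 0.022 for Sdhc, 0.028 for Sdhb, 0.00030 for Uqcrh, 0.0012 for Cox6a1, 0.033 for Cox6b1, 0.0058 for Cox7a2, 0.00045 for Cox8a and 0.022 for Atp5g3. Leaving out the 2 libraries with a pair of numbers in the title gave 0.00070 for Cox4i2. The sign of the log2 fold change turned as follows for sex under the control maternal diet. Limma voom gave 0.014 for Sdha, 0.13 for Uqcrh, 0.021 for Cox7c and 0.076 for Atp5h. 2 surrogate variables gave 0.011 for Uqcrh. Leaving out the 3 libraries that stood apart gave 0.00054 for Sdha, 0.11 for Uqcrh, 0.0096 for Cox7c and 0.055 for Atp5h. Leaving out the 5 doubtful libraries gave 0.0030 for Sdha, 0.088 for Uqcrh, 0.0049 for Cox7c and 0.044 for Atp5h. Leaving out those 5 and removing the length trend gave 0.091 for Uqcrh, 0.0077 for Cox7c and 0.043 for Atp5h.

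The number of genes called in all, 0 in each comparison, was 6 for diet in females, 1 in males, 5 for their mean, 6 for the interaction, 12 for sex under the obesogenic maternal diet and 2 for sex under the control maternal diet with DESeq2. For sex under the obesogenic maternal diet it was 2 with limma voom, 6 with 2 surrogate variables, 12 with 2 groups alone, 9 without the libraries against their sex label, 1 without those that stood apart, 14 without both, 3 with the length trend removed and 12 without both and with that trend removed. Under the control maternal diet it was 10 without the libraries against their sex label, 11 without both kinds and 13 with the length trend removed too. The median for diet in females was -0.028 for complex II and -0.050 for complex V with 2 surrogate variables, and -0.032 for complex II without the 5 libraries and with the trend removed. Without division by gene length the shares were 1.80% for Cox6b2, 1.66% for Cox7a1, 25.3% for Atp5g1, 15.6% for Atp5g2 and 59.1% for Atp5g3. Median correlations without the 5 libraries were 0.101, 0.321, 0.799 and 0.554 within complexes II to V and 0.563 between them. The cause of these differences was not tested. No paired analysis was possible because the labels give no replicate numbers shared between groups. Depth limits Cox7b2, Cox8b and Cox8c, which lie near the level of single pairs.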
